A study of Mus musculus with 8 samples.

Results

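The neutrophil-attracting CXC chemokines and their receptor were examined in MC38 tumors as a set of 7 genes, named as a family and selected on the difference in their expression between photoconverted and control tumors, which was already known. The set holds the ligands Cxcl1, Cxcl2, Cxcl3, Cxcl5 and Ppbp, the platelet chemokine Pf4 and the receptor Cxcr2. All 7 were among the 24421 genes of the count table and among the 14468 genes that passed the expression filter. Because that difference was used in choosing them, fold changes of these genes between the groups are given as a description with their standard errors and without a test. Bulk RNA-seq counts came from 8 tumors, 4 photoconverted and 4 control. MC38 is an established mouse colon adenocarcinoma line. In both groups female B6 Kaede mice, 9 weeks of age, had received 250000 MC38 cells, and the mice carry a fluorescent protein that turns from green to red under violet light. At 10 days, when tumors were about 5 mm across, the photoconverted group received 405-nm violet light for 3 min and the control group received none, and all tumors were taken 5 h later into RNAlater. The comparison asks whether the light itself alters transcription in the tumor.

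As background, CXC chemokines are small secreted proteins with a pair of cysteines separated by a single residue. Those with a glutamate-leucine-arginine (ELR) motif before the cysteines bind Cxcr2, a G protein-coupled receptor found mainly on neutrophils, and draw these cells out of the blood into inflamed tissue. Cxcl1, Cxcl2 and Cxcl3 are inducible by NF-kB in many cell types, Cxcl5 is made largely by epithelial and stromal cells, and Ppbp and Pf4 are stored in platelet granules. Pf4 lacks the ELR motif and is also transcribed by some macrophages.

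The 6 ligand genes lie with Cxcl15, a further ELR chemokine gene, on the same strand of chromosome 5 in the order Cxcl5, Ppbp, Pf4, Cxcl3, Cxcl15, Cxcl1 and Cxcl2. In GENCODE vM21 on GRCm38, the build that the submitters' processing notes name as mm10, this cluster of 7 genes spans 146.6 kb (chr5:90759360-90905938). Cxcr2 lies at chr1:74153989-74161246. Only 2.37 kb separate Ppbp from Pf4. Of the 7 genes of the set, 6 had a promoter window in the RefSeq table (GRCm38.p6). The windows of Cxcl1, Cxcl2 and Cxcl3 are shown because these genes share a letter pattern next to their starts. That of Pf4 is shown because it lacks the pattern and because the level of Pf4 differed least between the groups. The windows of Ppbp and Cxcr2, not shown, lack the pattern too, although their log2 fold changes were 1.59 and 2.07. A link between the pattern and the fold changes was not tested. Each line gives 150 bases, 5′ to 3′ on the plus strand, ending just before the earlier of the RefSeq and GENCODE starts. Capitals mark matches to GGGNNTTTCC on either strand, a pattern bound by NF-kB, and to ATAAAAG, which resembles the TATA box.
Cxcl1, chr5:90891091-90891240: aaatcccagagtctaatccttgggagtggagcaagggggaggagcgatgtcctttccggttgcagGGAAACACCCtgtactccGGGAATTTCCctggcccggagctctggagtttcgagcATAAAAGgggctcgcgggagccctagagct
Cxcl2, chr5:90903721-90903870: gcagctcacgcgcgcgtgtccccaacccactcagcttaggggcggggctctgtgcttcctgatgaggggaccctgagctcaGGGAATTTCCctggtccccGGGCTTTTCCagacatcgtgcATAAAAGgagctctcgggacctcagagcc
Cxcl3, chr5:90785951-90786100: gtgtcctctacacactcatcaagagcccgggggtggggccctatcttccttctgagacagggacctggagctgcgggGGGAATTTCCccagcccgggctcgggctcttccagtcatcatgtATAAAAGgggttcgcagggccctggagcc
Pf4, chr5:90772285-90772434: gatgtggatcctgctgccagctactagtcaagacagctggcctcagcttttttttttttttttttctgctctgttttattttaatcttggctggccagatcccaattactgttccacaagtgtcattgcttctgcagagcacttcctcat

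The longest word that the windows of Cxcl1, Cxcl2 and Cxcl3 share is GGGAATTTCCC, 11 bases long. Its first 10 bases, GGGAATTTCC, began 67 bases from the end of the printed line in Cxcl1, 69 bases in Cxcl2 and 73 bases in Cxcl3. It was found in 3 of the 6 windows of the set, taken over the 250 bases before the RefSeq start, and in 0.0852% of the 32851 windows of that length in the table, or 28 windows in all. The looser pattern GGGNNTTTCC was in 1.41% of all windows and in the same 3 windows of the set. Cxcl1 and Cxcl2 each held it at a further place, on the minus strand in Cxcl1 and on the plus strand in Cxcl2. The TATA-like pattern was in 4.83% of all windows and in 4 of the 6, Ppbp included, where the match was on the minus strand. The AP-1 pattern TGANTCA was in 1 of the 6 windows (Ppbp) and in 6.75% of all windows. The heat shock element pattern GAANNTTC was in 1 of the 6 (Pf4) and in 6.69% of all windows. All patterns were searched on both strands. These patterns were chosen with the sequences in view, and a match is a description of letters only. Outside the set, 25 genes had the decamer in a window and 12 of them were tested, of which 7 had a positive log2 fold change (median 0.03, against -0.01 for all tested genes). Among these 12 were Nfkbia, the NF-kB inhibitor gene, with a log2 fold change of 0.29, and Gbp5, an interferon-induced GTPase gene, with 0.56. The only one above 1 was Ccr3, an eosinophil chemokine receptor gene, with 1.33.

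Library totals were 16735293 to 35844417 counts in the photoconverted group and 12576615 to 29439901 in the control group. Levels are given as CPM, the count of a gene scaled to a common library size after TMM normalization. Photoconverted tumor 4, control tumor 2 and control tumor 4 stood apart with Rn45s, the ribosomal RNA precursor, at 21.9%, 35.7% and 23.2% of counts, against 2.70% to 9.65% in the other 5 tumors. Nothing in the labels says that tumors of a group came from separate batches. The epithelial markers gave little signal in any tumor, with summed CPM of 3.83 to 6.85 in photoconverted and 4.17 to 5.97 in control tumors over 9 genes, and Cdx2, an intestinal transcription factor gene, had no count. Cxcl2 and Cxcl3 share 61 of their 50-base transcript words, which are 3.28% of those of Cxcl2 and 6.31% of those of Cxcl3, and whether reads were shared between them was not tested. No other pair among the 7 genes shared such a word.

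Cxcl1, a ligand of Cxcr2 with a broad cellular origin, was the ELR ligand with the highest level per kilobase of transcript in every tumor. It had 36.3, 20.6, 36.1 and 14.6 CPM in the photoconverted group and 14.3, 7.81, 9.31 and 18.7 CPM in the control group, each in the order of tumors 1 to 4, as in all value lists that follow. Photoconverted tumors 1 to 3 lay above all controls, whereas photoconverted tumor 4 lay below control tumor 4, so the groups overlapped. The mean was 26.9 ± 11.01 CPM with light and 12.5 ± 4.97 CPM without it (SD, n = 4 each), and the log2 fold change was 1.10 (SE 0.36). Of the 5 ELR ligands it had the smallest fold change.

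Cxcl2, an early-response chemokine of macrophages and neutrophils themselves, had 12.4, 7.01, 13.6 and 1.85 CPM in the photoconverted group. The control group had 1.97, 0.963, 0.782 and 4.82 CPM. Control tumor 4 was thus the highest control for Cxcl2 as it was for Cxcl1, and photoconverted tumor 4 lay within the control range. The mean was 8.72 ± 5.41 CPM against 2.13 ± 1.87 CPM (SD, n = 4 each), with a log2 fold change of 2.04 (SE 0.69). Without control tumor 4 the log2 fold change was 2.77.

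Cxcl3, a close relative of Cxcl2, had 4.25, 2.62, 3.98 and 0.205 CPM in the photoconverted group and 0.514, 0.963, 0.391 and 0.977 CPM in the control group. Photoconverted tumors 1 to 3 lay above every control, but photoconverted tumor 4 was the lowest of all 8 tumors. That value rests on 3 counts, with an exact 95% Poisson interval of 0.0423 to 0.599 CPM that reaches into the control range and covers counting error only. The log2 fold change was 2.06 (SE 0.71) with photoconverted tumor 4 and 2.43 (SE 0.38) without it. With limma on log2 of the normalized values it was lower, at 1.38 (SE 0.85) with 1 added and 1.40 (SE 0.90) with 0.25 added.

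Cxcl5, a ligand typical of epithelial and stromal cells, had 8.56, 13.3, 10.6 and 3.01 CPM in the photoconverted group. The control group had 3.74, 1.61, 1.88 and 2.38 CPM. Only control tumor 1 lay above photoconverted tumor 4, as only control tumor 4 did for Cxcl1. Among the 7 genes only Cxcl5 was higher in the photoconverted tumor of all 4 same-numbered pairs. The mean was 8.85 ± 4.34 CPM against 2.40 ± 0.948 CPM (SD, n = 4 each) and the log2 fold change was 1.86 (SE 0.44). In contrast to Cxcl1 and Cxcl2, the highest control was tumor 1, and the highest value was that of photoconverted tumor 2.

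Ppbp, whose product is cleaved to the neutrophil attractant NAP-2, had few counts. They were 79, 32, 43 and 4 in the photoconverted group and 21, 2, 11 and 6 in the control group. In CPM these were 1.98, 1.01, 1.69 and 0.273 against 0.600, 0.214, 0.391 and 0.366, so that photoconverted tumors 1 to 3 again lay above all controls. The log2 fold change was 1.59 (SE 0.54).

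Pf4, the next gene along the chromosome, showed another pattern. It had 18.4, 16.5, 23.2 and 9.98 CPM in the photoconverted group and 14.4, 28.3, 11.8 and 6.78 CPM in the control group. The highest value of all tumors was in control tumor 2 and the lowest in control tumor 4, so the controls spanned the whole photoconverted range. The mean was 17.004 ± 5.46 CPM against 15.3 ± 9.20 CPM (SD, n = 4 each), a log2 fold change of 0.17 (SE 0.41). Its sign turned, to -0.01 without photoconverted tumor 3 and to -0.08 without control tumor 4, and it was 0.62 without control tumor 2.

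**Figure D1:**
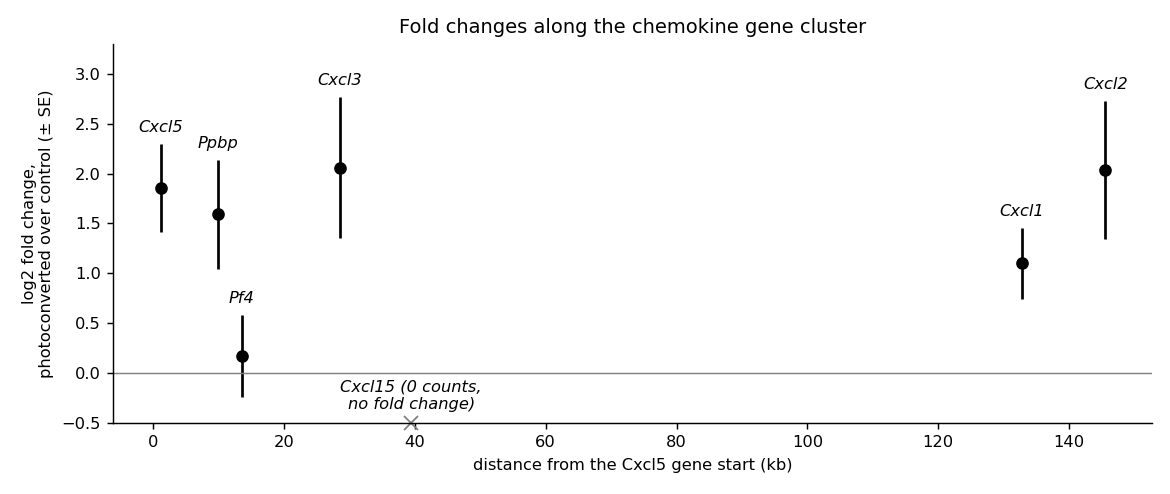
Log2 fold change of each chemokine gene (y axis, photoconverted over control, point and bars ± SE from edgeR, 4 tumors a group) against the distance of the gene's midpoint from the start of Cxcl5 (x axis, kb). Pf4, at 0.17, lies near 0 between Ppbp at 1.59 and Cxcl3 at 2.06, and Cxcl15 (cross at the lower edge) had no count in any tumor and no fold change.

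Cxcr2, the receptor, had 6.28, 7.52, 12.8 and 0.957 CPM in the photoconverted group. The control group had 1.97, 0.749, 1.78 and 1.89 CPM. Photoconverted tumors 1 to 3 were above every control, and photoconverted tumor 4, with 14 counts, lay within the control range. The mean was 6.89 ± 4.86 CPM against 1.60 ± 0.571 CPM (SD, n = 4 each), and the log2 fold change of 2.07 (SE 0.62) was the largest of the set, though by far less than its error over those of Cxcl3 and Cxcl2.

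**Figure D2:**
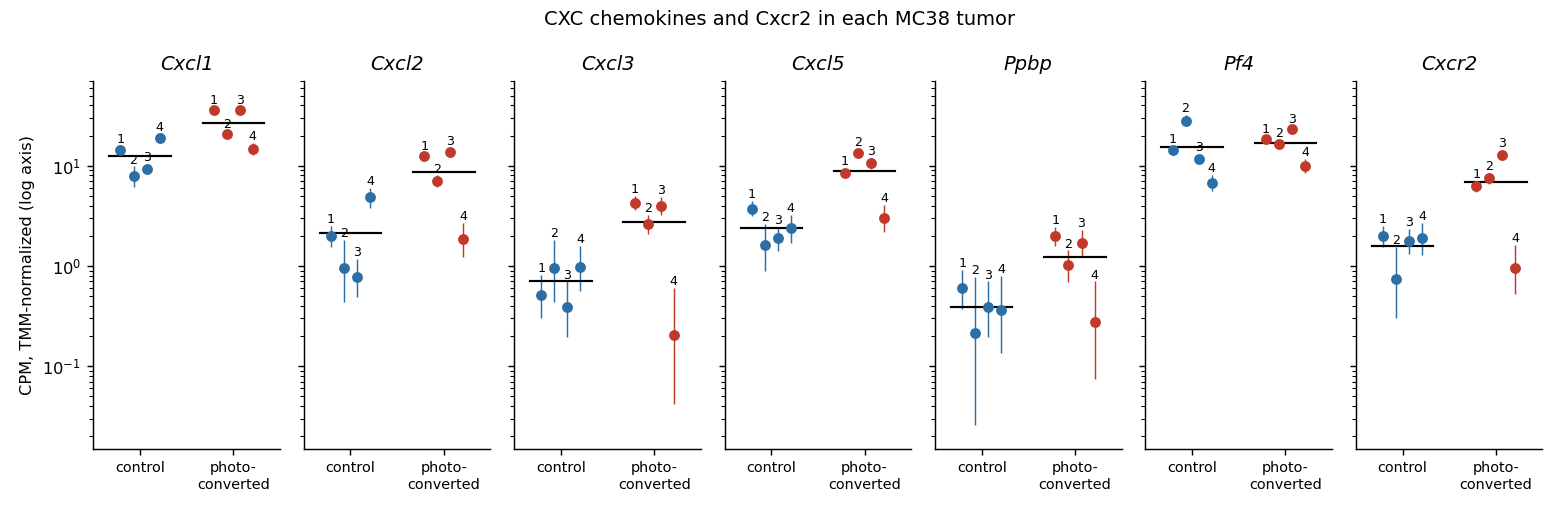
CPM (log axis) of each gene in each tumor, with replicate numbers above the points, exact 95% Poisson intervals as vertical bars and group means as horizontal lines (blue, control; red, photoconverted; n = 4 each). For every gene but Pf4, photoconverted tumors 1 to 3 lie above all controls, and photoconverted tumor 4 overlaps them or, for Cxcl3, lies below.

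In 6 of the 7 genes photoconverted tumors 1 to 3 lay above all 4 controls, an order that 3.83% of all tested genes had and that was described only after photoconverted tumor 4 had been seen to differ. All 4 photoconverted tumors lay above all 4 controls in 0 of the 7 genes and in 0.684% of tested genes, and all 4 lay below all 4 controls in 0 of the 7 and in 0.643% of tested genes. In each of the 7 genes the lowest photoconverted value was that of tumor 4. The mean of photoconverted tumors 1 to 3 was 1.94 times that of tumor 4 for Pf4, 2.12 times for Cxcl1, 9.27 times for Cxcr2 and 17.6 times for Cxcl3. A log2 fold change above 1 was found in 6 of the 7 genes and in 1.49% of tested genes. Since this contrast was used in choosing the genes, nothing is read from these counts.

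Across all 14468 genes, edgeR (quasi-likelihood test, adjusted by Benjamini-Hochberg) called 0.00% at an adjusted p of 0.05. At an unadjusted p of 0.05 there were 322 genes, fewer than the share of 0.05 that chance gives when no gene differs. A fit that blocked on the replicate number also gave 0.00%, with 869 genes at an unadjusted p of 0.05, somewhat more than that share. DESeq2's Wald test called 0.141% of its genes, or 24. limma, run on log2 of normalized values with 1 added, called 0, with 262 genes at an unadjusted p of 0.05, again below that share. In a fit of 3 photoconverted and 2 control tumors, those whose Rn45s share was below 10%, edgeR called 0.275% of genes, or 42. Whether genes of the set were among those called is not given, since they were selected on this contrast. The log2 fold changes in those 5 tumors were 1.39 (SE 0.29) for Cxcl1, 2.97 (SE 0.44) for Cxcl2, 2.98 (SE 0.35) for Cxcl3, 1.92 (SE 0.32) for Cxcl5, 1.64 (SE 0.43) for Ppbp and 2.23 (SE 0.34) for Cxcr2. That of Pf4 was 0.56 (SE 0.18), against 0.17 (SE 0.41) in all 8 tumors. The 3 tumors with a high Rn45s share held 1 photoconverted tumor, too few for a comparison among them.

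**Figure D3:**
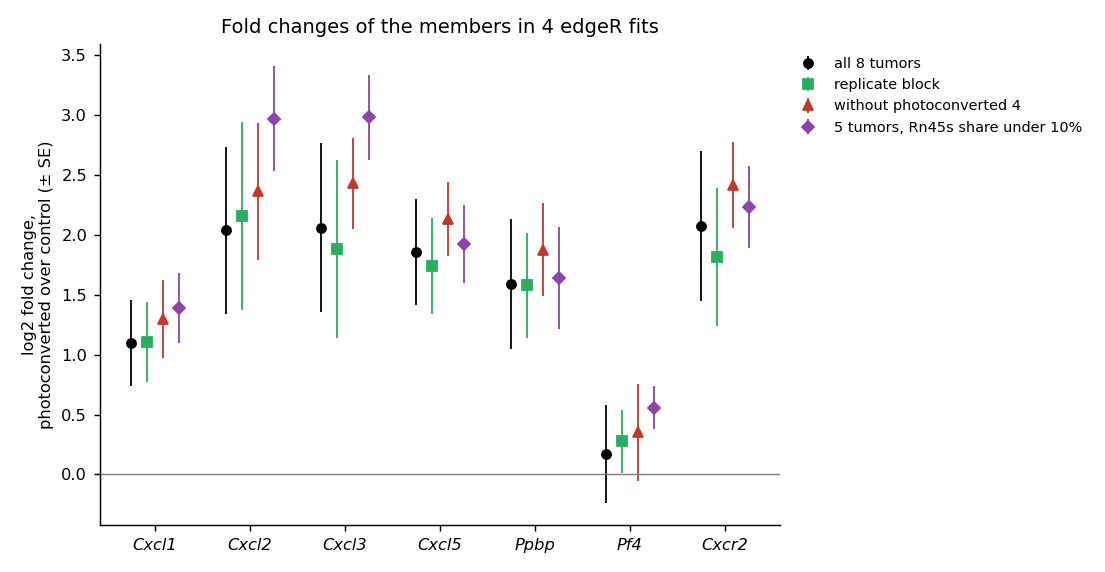
Log2 fold changes (y axis, photoconverted over control, bars ± SE) of the 7 genes (x axis) in 4 edgeR fits: all tumors, replicate number as a block, without photoconverted tumor 4, and the 5 tumors whose Rn45s share was below 10%. Cxcl1, Cxcl2 and Cxcl3 were highest in the fit of 5 tumors, whereas Cxcr2 and Cxcl5 were highest without photoconverted tumor 4, and Pf4 stayed lowest in each fit.

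To compare genes with each other, CPM was divided by the median length of their protein-coding transcripts in GENCODE. On this scale of CPM per kilobase, the levels in control tumors were 30.7 ± 18.4 for Pf4, 13.2 ± 5.22 for Cxcl1, 1.53 ± 0.602 for Cxcl5, 1.44 ± 1.26 for Cxcl2, 0.700 ± 0.298 for Cxcl3, 0.607 ± 0.217 for Cxcr2 and 0.363 ± 0.146 for Ppbp (SD, n = 4 each). Pf4 and Cxcl1 overlapped in control tumor 4, where Cxcl1 was the higher (19.7 against 13.6). Cxcl5 and Cxcl2 did not differ beyond their spread, nor did Cxcl3 and Cxcr2. In photoconverted tumors the levels were 34.0 ± 10.9 for Pf4 and 28.2 ± 11.6 for Cxcl1, which did not differ beyond their spread, and 5.87 ± 3.64 for Cxcl2, 5.62 ± 2.76 for Cxcl5, 2.72 ± 1.82 for Cxcl3, 2.62 ± 1.85 for Cxcr2 and 1.14 ± 0.702 for Ppbp (SD, n = 4 each). The lower end of this order depends on the length used. With the longest transcript, or with the union of exons, Cxcl3 was lowest, at 0.203 in control and 0.790 in photoconverted tumors, below Ppbp at 0.363 and 1.14, whereas Pf4 and Cxcl1 kept the first places with all 3 lengths. The ratio of Pf4 to Ppbp per kilobase was 20.2, 35.4, 29.6 and 79.1 in the photoconverted group and 52.2, 286, 65.2 and 40.1 in the control group.

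The summed level of the 5 ELR ligands was 57.9, 38.3, 59.2 and 19.0 CPM per kilobase in the photoconverted group and 19.7, 11.01, 12.2 and 25.7 in the control group. Cxcl1 made up 76.6 ± 2.28% of the sum in control tumors and 66.8 ± 10.3% in photoconverted tumors (SD, n = 4 each). Its share was 65.8%, 56.5% and 63.9% in photoconverted tumors 1 to 3, below every control, and 81.0% in photoconverted tumor 4, above every control. Cxcl2 took up 14.4%, 12.3% and 15.5% of the sum in photoconverted tumors 1 to 3, against 6.56% in photoconverted tumor 4. In controls its share was 6.72%, 5.89%, 4.30% and 12.6%, the last in control tumor 4, so that tumor resembled photoconverted tumors 1 to 3 in its Cxcl2 share but not in its Cxcl1 share. The ratio of Cxcl1 to Cxcl2 in CPM was 2.93, 2.94 and 2.65 in photoconverted tumors 1 to 3 and 7.93 in photoconverted tumor 4. It was 7.25, 8.11, 11.9 and 3.89 in control tumors 1 to 4. Cxcl5 held 22.0% of the sum in photoconverted tumor 2 and between 5.88% and 12.03% in the other 7 tumors.

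**Figure D4:**
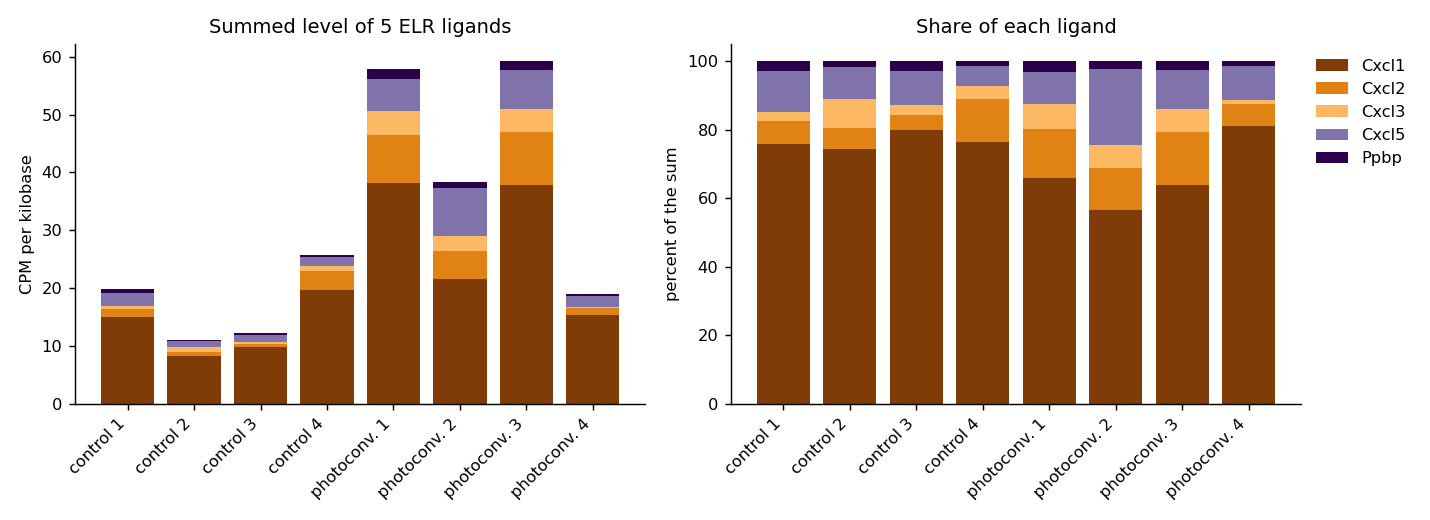
Left, summed level of the 5 ELR ligands in each tumor (CPM per kilobase of transcript, stacked by ligand). Right, the share of each ligand in that sum (percent), where Cxcl1 makes up 56.5% to 81.0% and Ppbp no more than 3.15%.

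The summed neutrophil markers were highest in photoconverted tumors 1 to 3, as Cxcr2 was. In bulk tumors, more neutrophils and more RNA per neutrophil cannot be told apart. Of its 20 genes 19 were matched, 14 of them were above 0 in every tumor and 14 were tested. All 14 tested genes had a positive log2 fold change, with a median of 1.06 against -0.01 for all genes. In edgeR 0 of them passed the threshold and 8 had an unadjusted p under 0.05, all higher, against 322 of all 14468 genes. DESeq2, which called 0.141% of all its genes, called 4 of the list, namely Hdc, Trem1, S100a9 and S100a8. The list, like those that follow, was drawn up with earlier results of these data known, so these counts are a description only. Hdc, the histidine decarboxylase gene, had 20.8 ± 4.46 CPM with light and 10.3 ± 1.27 CPM without it (log2 fold change 1.02, SE 0.19). Trem1, an amplifying receptor of myeloid cells, had 6.54 ± 2.99 CPM against 2.09 ± 0.294 CPM (log2 fold change 1.66, SE 0.39). S100a9, a calprotectin subunit gene, had 18.1 ± 11.5 CPM against 3.11 ± 1.41 CPM (log2 fold change 2.53, SE 0.63; SD, n = 4 in each group for these 3 genes). The adjusted p of each was 0.999 in edgeR.

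The summed CPM of the 19 neutrophil genes was 163.5, 176.7, 227.6 and 83.8 in the photoconverted group and 106.7, 67.2, 90.8 and 64.6 in the control group. For each 100 CPM of these genes there were 3.84, 4.25, 5.63 and 1.14 CPM of Cxcr2 in the photoconverted group, and 1.85, 1.12, 1.96 and 2.93 CPM in the control group. Cxcr2 was high in photoconverted tumors 1 to 3 relative to this sum, whose largest term in the mean of either group was Mmp9 (30.0 ± 3.69 against 25.9 ± 5.53 CPM, SD, n = 4 each, log2 fold change 0.21). Against single genes of the list, the ratio varied with the gene, in a description made after the data were seen. Of the ratios of Cxcr2 to each of the 14 tested genes, 6 were higher in photoconverted tumors 1 to 3 than in every control. Another 1 was lower than in every control and 7 overlapped. The same ratios to all other tested genes were not counted. Cxcr2 was selected on this contrast and itself lay above every control in these tumors. A ratio to a gene that changed little can separate in the same way. Nothing is therefore read from these counts or from the ratio to the sum. The ratio of Cxcr2 to Csf3r, the granulocyte growth factor receptor gene, was 0.284, 0.297, 0.325 and 0.0737 in the photoconverted group and 0.107, 0.0625, 0.120 and 0.214 in the control group. The ratio to S100a9 was 0.355, 0.335, 0.429 and 0.368 against 0.519, 0.389, 0.909 and 0.397. The lower one was that to S100a8, the other calprotectin subunit gene, where the highest control ratio, 2.33 in control tumor 2, rests on 3 counts of S100a8. Cxcr1, the other ELR chemokine receptor gene, had 0.118 CPM or less in every tumor.

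**Figure D5:**
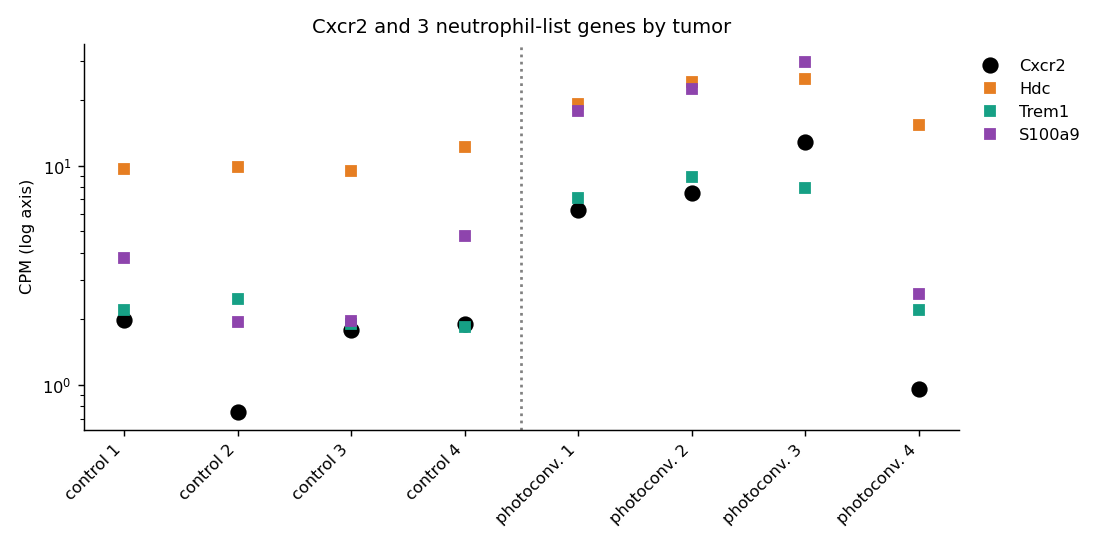
CPM (log axis) of Cxcr2 (black circles) and of the 3 neutrophil-list genes with the smallest p in edgeR, Hdc, Trem1 and S100a9 (colored squares), in each control tumor and each photoconverted tumor. All 4 genes are high in photoconverted tumors 1 to 3, and in photoconverted tumor 4 Hdc alone is above all controls.

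Correlations of a gene of the set with a marker list score or the Rn45s share were computed for 10 pairs over the 8 tumors. They are given without a p, because the genes were chosen with the group difference known and the lists can differ between the same groups. For 8 pairs no r over all tumors is given, since the tumors fell into separate clusters on at least 1 of the measures (a largest gap between neighboring values of over 33.3% of the range, a limit set after the data were seen). Among these was Cxcr2 with the neutrophil list, where photoconverted tumors 1 to 3 lay above the other tumors by a gap of 41.3% of the range of Cxcr2. Cxcl2 and the neutrophil list score, with a largest gap of 31.5%, had r = 0.77 and rho = 0.74. Without photoconverted tumors 2 and 3, farthest from the median score, r was 0.58. Pf4 and the macrophage list score had r = 0.68 and rho = 0.60, and r was 0.25 without control tumor 4 and photoconverted tumor 3.

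Markers of the other likely sources of these chemokines were compared in the same tumors. In the platelet list, 5 of 12 genes were tested, with a median log2 fold change of 0.13 and summed CPM of 32.6 to 39.7 in photoconverted and 27.01 to 50.5 in control tumors. Its leading genes by p were Gp5 (0.434 ± 0.163 against 0.174 ± 0.144 CPM), Gp1bb (7.73 ± 1.55 against 9.01 ± 2.87 CPM) and Itga2b (5.69 ± 0.550 against 5.17 ± 1.67 CPM; SD, n = 4 each), all platelet adhesion receptor genes, with an adjusted p of 0.999 in edgeR. Platelet receptor genes Gp6 and Gp1ba were near 0 in both groups (0.0224 and 0.0490 CPM on average in photoconverted tumors, 0.0313 and 0.0214 CPM in controls). In the macrophage list, 5 of 14 tested genes had a positive log2 fold change (median -0.05), and summed CPM was 819 to 1811 in photoconverted and 617 to 1574 in control tumors. In the fibroblast list the median was 0.06, with 3555 to 4868 CPM against 3342 to 12588 CPM. Other lists had larger medians, with every tested gene positive. The median was 1.84 over 3 keratinocyte genes, 1.13 over 9 skeletal muscle genes and 0.60 over 5 red blood cell genes. The keratinocyte list summed to 2.38 to 20.2 CPM with light and 1.68 to 4.16 CPM without it, and the skeletal muscle list to 168 to 1384 CPM against 168 to 401 CPM. The red blood cell list summed to 275 to 1761 CPM against 123 to 1810 CPM. Its genes Hba-a1 and Hba-a2 had equal values in every tumor, so that value entered the median and the sum more than once. In these 6 lists edgeR and DESeq2 called 0 genes, and an unadjusted p below 0.05 in edgeR was reached by 1 gene each of the red blood cell, keratinocyte and skeletal muscle lists. Their part in the chemokine values was not tested.

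Among upstream cytokines that induce ELR chemokines, 6 of 7 tested genes had a positive log2 fold change, with a median of 1.14. None passed the threshold in edgeR, 4 had an unadjusted p under 0.05, and none was called by DESeq2. Il6, which acts on stromal and endothelial cells, had 5.05, 4.83, 7.76 and 0.342 CPM in the photoconverted group and 0.885, 0.214, 0.818 and 0.610 CPM in the control group. As for Cxcr2, photoconverted tumors 1 to 3 lay above every control, with photoconverted tumor 4 inside the control range (log2 fold change 2.73, SE 0.73, adjusted p = 0.999 in edgeR). It was the only gene of the 8 pathway lists past the threshold in edgeR without photoconverted tumor 4 (adjusted p = 0.039) and in the 5 tumors whose Rn45s share was below 10% (adjusted p = 0.0195). Among all genes these fits called 11 of 14770 and 42 of 15252. Both leave out photoconverted tumor 4, whose Il6 lay inside the control range. Osm, a cytokine gene of neutrophils and macrophages, had 11.2 ± 4.53 CPM against 5.65 ± 1.29 CPM and a log2 fold change of 0.98 (SE 0.31). Il1b, the interleukin-1 beta gene, had 70.03, 56.1, 91.0 and 20.2 CPM in the photoconverted group and 28.2, 20.7, 37.6 and 21.1 CPM in the control group, with photoconverted tumor 4 below every control (log2 fold change 1.14, SE 0.40). Tnf did not share this pattern, with 5.60 ± 1.12 CPM against 5.84 ± 1.41 CPM and a log2 fold change of -0.07 (SE 0.24; SD, n = 4 each for Osm and Tnf). Il17a had no count in any tumor.

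Growth factors of granulocytes and macrophages gave 3 tested genes, of which edgeR and DESeq2 called 0, while 2 reached an unadjusted p of 0.05 in edgeR. Csf1, the macrophage growth factor gene, had 144 ± 22.0 CPM against 105 ± 15.7 CPM (log2 fold change 0.45, SE 0.15), and all 4 photoconverted tumors lay above all controls. Csf3, the granulocyte growth factor gene, had 1.13, 1.80, 1.69 and 0.137 CPM in the photoconverted group and 0.314, 0.642, 0.391 and 0.549 CPM in the control group. As for Cxcl3, photoconverted tumors 1 to 3 lay above every control and photoconverted tumor 4 was the lowest of all tumors, on 2 counts. Kitl, the stem cell factor gene, had 59.0 ± 16.1 CPM against 60.3 ± 26.1 CPM (SD, n = 4 each for Csf1 and Kitl).

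Among the other CXC ligands and receptors, 6 of 9 genes were tested and 0 had an unadjusted p under 0.05 in edgeR or passed DESeq2's threshold. Ackr1, a chemokine-binding scavenger receptor of venules and red blood cells, had 1.95, 2.75, 5.12 and 0.478 CPM in the photoconverted group and 2.71, 1.499, 1.46 and 0.366 CPM in the control group. Photoconverted tumors 2 and 3 lay above every control and control tumor 4 below every photoconverted tumor, with the others overlapping. Cxcr3, the receptor of the interferon-induced CXC chemokines, had 1.69 ± 0.455 CPM against 2.19 ± 1.06 CPM (SD, n = 4 each). Cxcl14 had the smallest p, with 21.6 ± 7.61 CPM against 12.7 ± 5.51 CPM and a log2 fold change of 0.77 (SE 0.35). Downstream of Cxcr2, all 16 signaling genes were tested, including the G protein and arrestin genes. Of these 6 had a positive log2 fold change (median -0.11), and 0 had an unadjusted p under 0.05 in edgeR or an adjusted p under 0.05 in DESeq2. These genes are widely expressed, with summed CPM of 1502 to 1718 in photoconverted and 1476 to 1938 in control tumors.

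Of the 11 genes that control NF-kB or chemokine mRNA decay, 8 had a positive log2 fold change (median 0.16). None passed the threshold in edgeR or DESeq2, and 2 had an unadjusted p under 0.05, both higher. Zfp36, whose product speeds the decay of mRNAs with AU-rich elements such as those of Cxcl1 and Cxcl2, had 55.5 ± 20.1 CPM against 31.5 ± 4.53 CPM (log2 fold change 0.82, SE 0.25). Nfkbiz, a nuclear cofactor of NF-kB, had 48.4 ± 10.99 CPM against 36.9 ± 4.12 CPM (log2 fold change 0.39, SE 0.17). The NF-kB subunit gene Rela had 82.0 ± 7.20 CPM against 78.1 ± 15.5 CPM (SD, n = 4 each for these 3 genes). Among proteases that cut chemokines, Mmp8, a collagenase gene of neutrophil granules, had 1.75 ± 1.11 CPM against 0.681 ± 0.259 CPM (SD, n = 4 each, log2 fold change 1.30, SE 0.52), and it was the 1 gene of 5 tested with an unadjusted p under 0.05. In the list of platelet granule and glycosaminoglycan carriers, Srgn, the serglycin gene whose proteoglycan holds Pf4 in granules, had 82.2 ± 36.3 CPM against 45.2 ± 13.1 CPM (SD, n = 4 each, log2 fold change 0.86, SE 0.36) and was the 1 gene of 4 with an unadjusted p under 0.05. Neither list had a gene past the threshold in edgeR or DESeq2.

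Across the 8 tumors, which share libraries and depth for all genes, Cxcl1 and Cxcl2 followed each other most closely among the set, with a Pearson r of 0.97 on log2 CPM, and Cxcr2 followed Ppbp (0.94) and Cxcl5 (0.92). Pf4 had r between 0.08 with Cxcl1 and 0.52 with Cxcl3. Outside the set, the tested genes most like Cxcl1 included Hspe1 (0.99), a mitochondrial chaperonin gene, and Ereg (0.97), which encodes the growth factor epiregulin. Those most like Cxcl2 were Hspa1a (0.97) and Hspa1l (0.97), both of the Hsp70 family, and Osm (0.96). Both heat shock genes had large log2 fold changes, 4.38 for Hspa1a and 4.04 for Hspa1l, with an adjusted p of 0.999 in edgeR. Their part in the chemokine values was not tested. Cxcl3 was most like Il1f9 (0.97), the interleukin-36 gamma gene, Dusp1 (0.95), a phosphatase gene of the immediate early response, and Fam167a (0.95). Cxcl5 was most like Sgk1 (0.97), a kinase gene, S100a9 (0.96) and Ppp1r3b (0.95), which encodes a glycogen-targeting phosphatase subunit. Ppbp was most like Bsdc1 (0.98), Il33 (0.97), an alarmin cytokine gene, and Atf3 (0.97), a stress transcription factor gene. Cxcr2 was most like Il6 (0.99), Ppp1r3b (0.99) and S100a8 (0.97). Pf4 stood apart with Fzd1 (0.98), a Wnt receptor gene, Adcyap1r1 (0.98), a neuropeptide receptor gene, and Thsd7a (0.97). These were among the 3 highest of 14461 correlations for each gene over 8 points, and are given as a description of likeness only. Since the tumors fell into separate clusters on Cxcr2, Cxcl5, Cxcl1 and Cxcl3 by the limit given above, r values with these genes include that gap between tumors.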

How the data were processed

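Bulk RNA-seq was performed on 4 photoconverted and 4 control MC38 tumors. The authors deposited raw counts for each gene symbol. Their other table holds normalized signal values, deposited as these counts over DESeq2's size factors. The submitters' processing notes name CASAVA, FastQC, Trim Galore, HISAT2, featureCounts, DESeq2 and mm10, with no role given. The annotation is not given in the sources used here. The methods name a TruSeq stranded kit and the labels a SMARTER stranded kit. The labels' description letters tied columns to tumors.

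Counts were tested with edgeR 4.0.16 (TMM, filterByExpr, quasi-likelihood test, threshold 0.05 after Benjamini-Hochberg) under R 4.3.3. DESeq2 1.42.0 and limma 3.58.1 were alternatives, as were other scalings, filters and transcript lengths, the Rn45s share as a covariate or limit, the replicate block and each tumor left out. log2 CPM used a prior count of 2. The standard error was the log2 fold change divided by the square root of F. The procedures were tested on simulated data, where DESeq2 made more false calls than edgeR or limma. The simulated counts used edgeR's own dispersions and held no outlying tumor, so they do not rank the methods on these data. Permutation p-values of the correlations, planned and computed, are not reported because the genes were chosen on the same group difference. Replicates of a group differed by more than sampling noise (chi-square over degrees of freedom of at least 25.3). The labels name 4 mice per group, and p-values measure the spread between these tumors.

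Deviations from the group means, on log2 CPM across genes, correlated between same-numbered tumors with r of 0.60, 0.11, 0.41 and 0.62 for numbers 1 to 4. The shared numbers come from the sample titles, which state no pairing. Because each r was over 0.1, they were used as a block in an alternative fit and to compare same-numbered tumors. The main fits left them out. For number 3 the closest tumor of the other group had another number in both directions, and for number 2 in 1 direction. The part of the Rn45s share in these r values was not tested.

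The genes, lists and alternatives were chosen with earlier results of these data known. Genes named were the 7 of the set, the 3 most correlated genes for each, up to 3 per list with the smallest p, and Cxcl15, Cxcr1, Ackr1 and Cxcr3 whatever their values, of which some are not reported here. Tnf, Il17a, Rela, Gp6, Gp1ba, Cdx2, Gbp5, Ccr3 and Csf3r were named after their values were seen.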

Additional observations from a re-analysis of the deposited data

Results flagged for a closer look

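In 14 groups of 4 tumors examined (7 genes in each condition), 1 value lay far from the other 3 of its group, where chance gives 0.7. Cxcr2 in control tumor 2 was 0.749 CPM, against 1.78 CPM in the nearest control. It rests on 7 counts, with an exact 95% Poisson interval of 0.301 to 1.54 CPM that overlaps the 1.32 to 2.34 CPM interval of that nearest control, control tumor 3, and covers counting error only. This library had the highest Rn45s share and the lowest total count of the 8, and their part in the value was not tested.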

How the results depend on the processing

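All 133 log2 fold changes of the 7 genes under the alternatives lay within 1 SD between replicates of the value reported, and 6 of the 7 genes kept a positive sign in all 19 alternatives, with Pf4 the exception (-0.01 without photoconverted tumor 3 and -0.08 without control tumor 4). The count of genes past the threshold, 0, was 24 in DESeq2, 42 in the 5 tumors whose Rn45s share was below 10%, and 0 to 11 when each tumor was left out, with the 11 without photoconverted tumor 4. In the pathway lists it was 1 (Il6) in those 5 tumors and 0 to 1 when each tumor was left out. The cause was not tested. Blocking on the replicate number called 0 genes (869 had an unadjusted p below 0.05) and changed no call. The share of Cxcl1 among ELR ligands in controls was 70.1% with the longest transcript and, in an alternative added after the data were seen, 70.1% with the union of exons. The r of Cxcl2 with the neutrophil score ranged from 0.67 to 0.92 with each tumor left out, the latter without control tumor 4, and that of Pf4 with the macrophage score from 0.43 (without control tumor 4) to 0.84 (without control tumor 2). Counts of 2 to 21 limit Ppbp in controls.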

Other observations

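Adhesion molecules that slow neutrophils on the vessel wall were not uniform. Sele, the endothelial E-selectin gene, had 3.07 ± 2.42 CPM with light and 1.02 ± 0.730 CPM without, and Selp, the P-selectin gene, had 6.81 ± 5.39 CPM against 2.72 ± 1.40 CPM. Icam1 had 22.6 ± 2.93 CPM against 23.6 ± 4.26 CPM, and Vcam1 had 138 ± 13.6 CPM against 137 ± 34.6 CPM (SD, n = 4 each for these 4 genes). Of the 9 adhesion genes, all tested, 7 had a positive log2 fold change (median 0.06), 0 passed the threshold in edgeR or DESeq2, and 0 had an unadjusted p under 0.05 in edgeR. The endothelial marker list had a median log2 fold change of 0.14, with summed CPM of 158 to 238 against 149 to 220, and 0 of its 9 genes had an unadjusted p under 0.05 in edgeR or passed DESeq2's threshold. Icam1 and Vcam1 were named after their values were seen.

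Mast cell and T cell markers were also counted. In the mast cell list all 6 tested genes had a positive log2 fold change (median 0.62), with summed CPM of 10.7 to 29.9 against 8.91 to 22.6. In the T cell list 2 of 6 tested genes did (median -0.07), with 11.002 to 26.6 CPM against 5.74 to 25.2 CPM. In edgeR 0 genes of either list passed the threshold, 1 mast cell gene and 0 T cell genes had an unadjusted p under 0.05, and DESeq2 called 0. The part of mast cells in the values of Hdc, counted above in the neutrophil list, was not tested.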
